A study of Mus musculus with 2 samples.

Results

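Cacna1g, Cacna1h and Cacna1i encode the pore-forming subunits Cav3.1, Cav3.2 and Cav3.3, which together make up the T-type, or low-voltage-activated, calcium channels. They were taken as the 3 genes of this family among the 32285 gene rows of both count tables, by matching the Ensembl identifiers to gene symbols on GRCm38, and all 3 had a row in both tables. To examine which subunit each kind of thalamic neuron carries and how the levels compare after a cortical lesion, single-nucleus RNA sequencing (snRNA-seq) counts from 2 mouse thalamus libraries were used. One library came from mice given a sham operation. The other came from mice given a cortical ablation injury (CAI), in which the primary sensory and motor cortex is resected on one side. All mice were female C57BL/6J, 3 months old, and the thalamus of the operated hemisphere was taken at day 21. Nuclei of 4 mice were pooled in equal numbers within each group and carry no mark of the mouse. Each group is therefore 1 sample, the spread between mice is unknown, and no test between the groups was possible. Intervals given below are at 95% and cover counting error only. Where an interval excludes no difference, the statement is about these 2 libraries.

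T-type channels open on small depolarizations and inactivate quickly, and a hyperpolarization is needed to make them available again. In thalamic relay neurons and in the GABAergic neurons of the reticular nucleus they carry the low-threshold calcium spike that drives burst firing, which is known from sleep rhythms and absence seizures. Cav3.3 is known for slower gating than Cav3.1 and Cav3.2, and Cav3.2 is also known for its role in pain pathways outside the thalamus.

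The channels of this family share an unusual selectivity filter. In the pore loops of repeats III and IV the position that holds a glutamate in high-voltage-activated calcium channels holds an aspartate. The coding stretches around these 2 codons are shown because they are the part of the sequence that sets the family apart and because they show how alike the 3 genes are there. They come from the GENCODE M21 transcripts with the longest coding sequence of each gene on GRCm38, are written 5′ to 3′ on the coding strand, and carry the aspartate codon in capitals. The repeat III stretches each lie within 1 exon, on the minus strand at chr11:94426447-94426497 and chr17:25383484-25383534 and on the plus strand at chr15:80376783-80376833.
Cacna1g repeat III: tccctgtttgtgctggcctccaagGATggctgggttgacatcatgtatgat
Cacna1h repeat III: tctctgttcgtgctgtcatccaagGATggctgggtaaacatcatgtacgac
Cacna1i repeat III: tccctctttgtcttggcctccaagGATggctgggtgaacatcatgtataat
The repeat IV stretches each span 2 exons, within chr11:94416097-94416453, chr17:25377675-25377809 and chr15:80388473-80389049.
Cacna1g repeat IV: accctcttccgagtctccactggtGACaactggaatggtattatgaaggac
Cacna1h repeat IV: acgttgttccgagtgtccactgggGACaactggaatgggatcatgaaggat
Cacna1i repeat IV: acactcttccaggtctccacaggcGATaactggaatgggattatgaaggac
Over these 51 bases Cacna1g differed from Cacna1h at 8 bases in both repeats and from Cacna1i at 6 and 7 bases, and Cacna1h differed from Cacna1i at 11 bases in both. Over whole transcripts the genes were easily told apart. Of the 10333 different words of 31 bases in Cacna1g transcripts, 38 also occurred in Cacna1h and 53 in Cacna1i, and Cacna1h and Cacna1i shared 28.

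Cacna1g (ENSMUSG00000020866) lies on chromosome 11 at 94408391 to 94474198, Cacna1h (ENSMUSG00000024112) on chromosome 17 at 25374285 to 25433783 and Cacna1i (ENSMUSG00000022416) on chromosome 15 at 80287238 to 80398279. Cacna1g and Cacna1h are on the minus strand and Cacna1i is on the plus strand. Their exons add up to 10.1, 9.76 and 9.86 kb, whereas the gene spans differ more, at 65.8, 59.5 and 111 kb. The last 158 bases of Cacna1h overlap Tpsg1 on the other strand, and Tpsg1 had 11 UMIs in the whole sham library and 6 in the injury library.

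After filtering, 16373 sham and 21777 injury nuclei remained, with medians of 7190 and 6810 UMIs, and 101 barcodes occurred in both tables. Classes were set by sums of marker UMIs in a nucleus, without clustering. Reticular-like GABAergic nuclei had at least 2 UMIs of Gad1 and Gad2 and at least 2 of Six3 and Ubash3b (732 sham and 1204 injury nuclei). Relay-like nuclei had at least 2 UMIs of the glutamate transporter genes Slc17a6 and Slc17a7 and at least 2 of Tcf7l2, Lef1 and Prkcd (4845 and 5042). Habenular-like nuclei had the same transporter UMIs and at least 2 UMIs of Pou4f1, Gng8 and Tac2 (201 and 222). Both glutamatergic classes had fewer than 2 UMIs of Gad1 and Gad2. Genes that the gates did not use fitted 2 of the labels well and the third in part. Ntng1 stood at 4141 CPM (the UMIs of a gene over all UMIs of the class, on the usual counts-per-million scale) in sham relay-like nuclei against 644 in reticular-like nuclei. Nwd2, a medial habenula gene, stood at 4056 CPM in sham habenular-like nuclei against 297 in relay-like nuclei. In reticular-like nuclei Pvalb (47.4 CPM in sham) and Isl1 (62.4) were high against relay-like nuclei (1.55 and 0.23), whereas Spp1 was low at 3.23 CPM, and Isl1 is not among the usual markers of the reticular nucleus, so the class is called by its gate. Ubash3b was also counted in oligodendrocytes (253 and 305 CPM in sham and injury, against 613 and 661 in reticular-like nuclei), and 312 of the 732 sham and 511 of the 1204 injury reticular-like nuclei had a Six3 UMI. The myelin gene Mbp stood at 44.9 and 75.3 CPM in reticular-like and at 33.8 and 68.7 CPM in other GABAergic nuclei. The nuclei that passed no gate numbered 7326 in sham and 8959 in injury. A gate for microglia took nuclei with neuronal depth (433 sham and 776 injury), since its gene P2ry12 was counted in neurons too. Its nuclei are not described beyond their Cacna1g level. Between 7.96 and 21.9% of the nuclei of a neuronal class also passed a second gate and may be doublets. The microglia gate counted as a second gate here, so the share is not a rate of doublets.

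Cacna1g was the gene of relay-like nuclei. It stood at 151 CPM (interval 148 to 155) in sham and 163 CPM (160.3 to 166) in injury. It had at least 1 UMI in 74.8% of sham and 75.9% of injury relay-like nuclei, and up to 15 UMIs in 1 nucleus. In reticular-like nuclei it stood at 60.9 CPM (55.5 to 66.8) in sham and 58.1 (54.1 to 62.4) in injury, and in habenular-like nuclei at 51.4 (41.8 to 62.5) and 68.1 (58.5 to 78.9). Relay-like nuclei thus had 2.48 times the level of reticular-like nuclei in sham and 2.81 times in injury, and 2.95 and 2.40 times the level of habenular-like nuclei. Other glutamatergic nuclei (no relay or habenular gate) had 81.6 and 56.1 CPM and other GABAergic nuclei 70.4 and 82.5 CPM. In both libraries the relay-like interval stood apart from those of the other neuronal classes. Nuclei that passed no gate had 120 CPM (117 to 124) in sham and 117 (114 to 120) in injury. Nuclei of the microglia gate had 137 CPM (126 to 149) in sham, an interval that overlapped the relay-like one, and 130 (122 to 139) in injury. Every other neighbouring pair of neuronal classes in the order of levels had overlapping intervals, although the sham ratio of reticular-like to other GABAergic nuclei was 0.87 (log2 -0.21, interval -0.39 to -0.03).

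Free RNA in the droplets gives UMIs of a gene in cells that do not express it, and oligodendrocytes, the myelin-forming cells, served as the background. They had 54.4 CPM (45.9 to 64.2) of Cacna1g in sham and 37.8 (33.1 to 43.0) in injury, at median depths of only 1757 and 1892 UMIs, with a UMI in 7.57 and 7.09% of nuclei. With each nucleus thinned to 2000 UMIs, the share with Cacna1g was 25.5 and 26.3% in relay-like, 10.5 and 9.59% in reticular-like, 6.47 and 9.01% in habenular-like nuclei and 6.67 and 4.77% in oligodendrocytes. Thinning left out 5 sham and 3 injury relay-like, 1 and 5 reticular-like and no habenular-like nuclei, and 601 and 1229 oligodendrocytes. The sham habenular-like share was therefore no higher than that of oligodendrocytes. Other glia had less Cacna1g in value in sham, at 31.3 CPM (17.9 to 50.9) from 16 UMIs in astrocytes and 26.8 CPM (10.8 to 55.1) from 7 UMIs in oligodendrocyte precursors, with intervals that overlapped the sham habenular-like one. Thinned shares there were 1.96% of only 102 astrocytes and 1.85% of only 54 precursors. In injury astrocytes had 26.4 CPM (18.9 to 35.8) and precursors 49.8 (33.1 to 72.0). The injury thinned shares were 3.60% of 333 astrocytes and 5.56% of 108 precursors. By CPM, whether the sham habenular-like level exceeds free RNA thus depends on the glia taken. The level could not be told apart from that of oligodendrocytes on this scale. Counted per nucleus, sham Cacna1g stood at 49.8 UMIs per 100 habenular-like and 61.9 per 100 reticular-like nuclei, against 14.3 per 100 oligodendrocytes. In injury these counts were 81.1, 63.5 and 10.3. The oligodendrocytes were shallower, so the scales can order the classes differently, and the free RNA in a droplet was not measured. The reticular-like shares were higher in value in both libraries, a difference that was not tested. By CPM, however, the sham reticular-like level did not differ from oligodendrocytes beyond counting error. The log2 ratio was 0.16 (-0.11 to 0.45) in sham, against 0.62 (0.41 to 0.84) in injury. The oligodendrocyte level itself was lower in injury, with a log2 ratio of injury over sham of -0.53 (-0.83 to -0.21). For reticular-like nuclei that ratio was -0.07 (-0.24 to 0.10). The injury habenular-like share was also higher in value than that of oligodendrocytes, and by CPM the log2 ratio was 0.85 (0.56 to 1.14). A further measure was the ratio to Ntng1, the abundant relay gene. Per 100 Ntng1 UMIs, sham relay-like nuclei had 3.66 Cacna1g UMIs (3.58 to 3.74), oligodendrocytes 5.22 (4.38 to 6.18), habenular-like nuclei 4.86 (3.94 to 5.95) and reticular-like nuclei 9.46 (8.58 to 10.4). In injury the reticular-like ratio was 11.2 (10.4 to 12.1) against 4.42 (4.34 to 4.51) in relay-like nuclei and 6.28 (5.48 to 7.18) in oligodendrocytes. The injury habenular-like ratio was 5.09 (4.36 to 5.92), so by this measure, unlike by CPM, it was no higher than in oligodendrocytes. Reticular-like nuclei without any UMI of Slc17a6 or Ntng1 had 40.1 CPM of Cacna1g in sham and 39.2 in injury. All oligodendrocytes had 54.4 and 37.8 CPM. The oligodendrocytes were not selected for lack of these UMIs, with Ntng1 at 1043 CPM in sham, so these sets of nuclei are not alike.

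Cacna1i was highest in reticular-like nuclei. It stood there at 62.6 CPM (57.0 to 68.5) in sham and 66.1 (61.8 to 70.7) in injury, with a UMI in 41.1 and 41.4% of nuclei. Relay-like nuclei had 13.3 CPM (12.4 to 14.2) and 14.7 (13.8 to 15.7), or 0.21 and 0.22 times the reticular-like level. Habenular-like nuclei lay between, at 40.1 CPM (31.7 to 50.03) and 32.6 (26.0 to 40.2), other glutamatergic nuclei had 48.3 and 41.0 CPM, and other GABAergic nuclei had 37.8 and 32.5 CPM. The reticular-like interval stood apart from those of the other neuronal classes in both libraries. The intervals of other glutamatergic and habenular-like nuclei overlapped, as did those of habenular-like and other GABAergic nuclei. Oligodendrocytes differed between the libraries, with a log2 ratio of injury over sham of 1.33 (0.44 to 2.35). They had 4.60 CPM (2.38 to 8.04) in sham and 11.6 (9.04 to 14.6) in injury. The injury interval overlapped that of relay-like nuclei, although the log2 ratio of relay-like nuclei to oligodendrocytes was 0.35 (0.0004 to 0.72). At 2000 UMIs a nucleus, 11.5 and 12.4% of reticular-like nuclei had Cacna1i against 2.85 and 2.80% of relay-like nuclei and 1.54 and 1.65% of oligodendrocytes.

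Cacna1h had the fewest UMIs of the 3 genes in relay-like, habenular-like, reticular-like and other GABAergic nuclei of both libraries. In other glutamatergic nuclei of the injury library and in sham oligodendrocytes it had more than Cacna1i. It stood at 19.8 CPM (16.7 to 23.2) in sham and 28.9 (26.1 to 31.9) in injury in reticular-like nuclei, with a UMI in 16.1 and 21.6% of nuclei. Other glutamatergic nuclei had 20.9 and 43.4 CPM and other GABAergic nuclei 14.1 and 21.3 CPM. In relay-like nuclei it stood at 2.93 CPM (2.52 to 3.40) and 4.32 (3.84 to 4.85), and in habenular-like nuclei at 4.11 (1.78 to 8.10) and 4.92 (2.62 to 8.42), from 8 and 13 UMIs. Oligodendrocytes had 7.28 CPM (4.39 to 11.4) and 8.48 (6.33 to 11.1), more than relay-like nuclei in both libraries, whereas the log2 ratio of habenular-like nuclei to oligodendrocytes was -0.83 (-2.23 to 0.43) and -0.78 (-1.79 to 0.11). At 2000 UMIs a nucleus, 0.52 and 0.81% of relay-like nuclei, 0.50 and 0.45% of habenular-like nuclei, 1.03 and 1.75% of oligodendrocytes and 3.83 and 5.25% of reticular-like nuclei had a Cacna1h UMI. As a fraction of UMIs, Cacna1h in relay-like and habenular-like nuclei, each taken as a class, was thus no higher than in oligodendrocytes. Per 100 nuclei, relay-like had 3.63 and 5.79 Cacna1h UMIs and habenular-like 3.98 and 5.86, against 1.92 and 2.30 in the shallower oligodendrocytes. Within the relay-like class injury nuclei with a cortex marker UMI had more, at 18.1 CPM (13.01 to 24.4), as did injury nuclei of the mostly relay-like Col12a1+Ror1 type. In sham the intervals of other glutamatergic, reticular-like and other GABAergic nuclei overlapped in turn, although the ratio of reticular-like to other GABAergic nuclei was 1.40 (log2 0.49, interval 0.14 to 0.84), and in injury these 3 classes stood apart from each other.

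**Figure D1:**
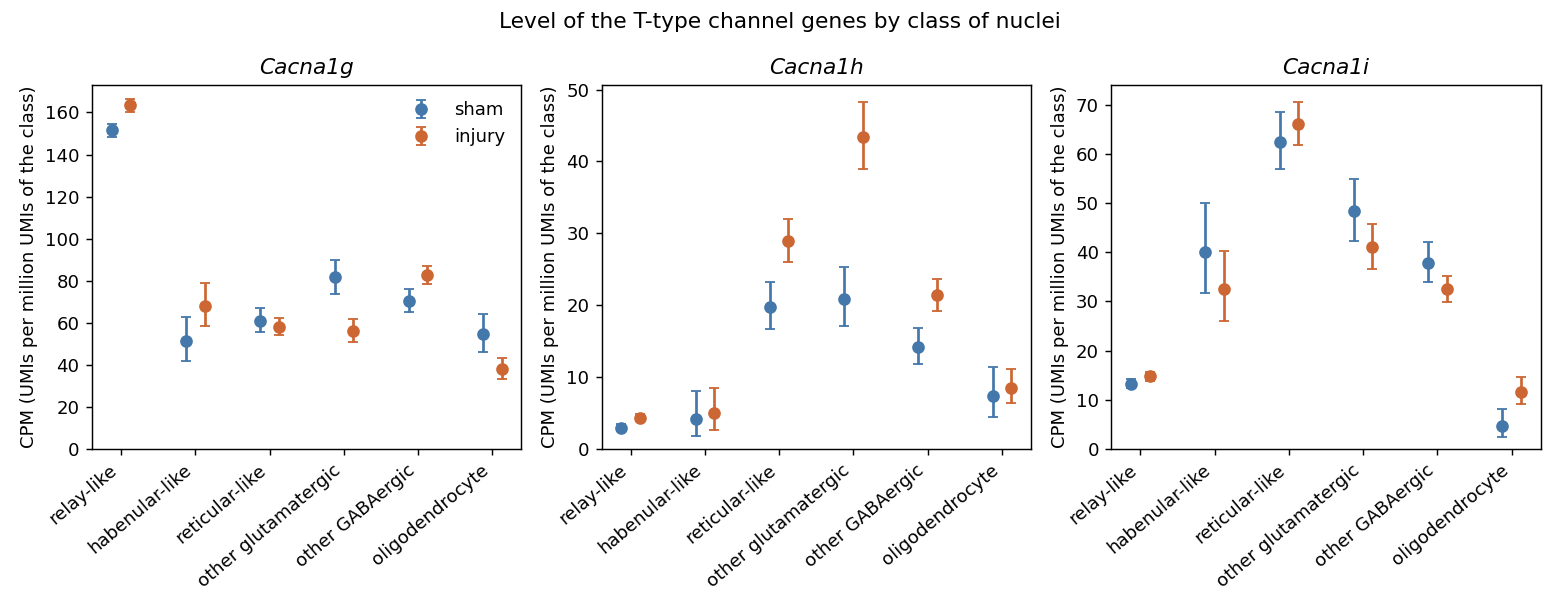
Level of Cacna1g, Cacna1h and Cacna1i in CPM (y axis, linear from 0, a different range in each panel) by class of nuclei (x axis) in the sham (blue) and injury (orange) library, with exact Poisson 95% intervals as bars. Cacna1g stands at 151 and 163 CPM in relay-like nuclei, above every other class shown, while Cacna1i peaks in reticular-like nuclei at 62.6 and 66.1 CPM.

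The subunit choice of a class was described by the share of each gene in its summed T-type UMIs. In relay-like nuclei Cacna1g took 90.3% (89.7 to 90.9) of 10058 UMIs in sham and 89.6% (89.0 to 90.1) of 12327 in injury. Cacna1i took 7.92 and 8.08%, and Cacna1h 1.75 and 2.37%. In habenular-like nuclei Cacna1g took 53.8% (46.3 to 61.1) of 186 UMIs and 64.5% (58.6 to 70.1) of 279, and Cacna1i took 41.9% (34.8 to 49.4) and 30.8% (25.5 to 36.6). Free RNA may hold part of these Cacna1g UMIs, since the sham CPM was near that of oligodendrocytes, although the UMIs per nucleus were higher. The leading gene of this class is therefore not read from the shares. In reticular-like nuclei Cacna1i took 43.7% (40.7 to 46.7) of 1065 UMIs and 43.2% (41.0 to 45.4) of 2015. Cacna1g took 42.5% (39.5 to 45.6) and 38.0% (35.8 to 40.1), and Cacna1h took 13.8% (11.8 to 16.0) and 18.9% (17.2 to 20.6). A single subunit thus made up most of the T-type RNA of relay-like nuclei, whereas Cacna1g and Cacna1i were counted about equally in reticular-like nuclei of the sham library. That balance depends on the nuclei taken and may depend on free RNA. By CPM, though not per nucleus, the sham reticular-like Cacna1g level did not differ from that of oligodendrocytes beyond counting error. In sham Cacna1i stood at 70.7 against 49.4 CPM of Cacna1g in reticular-like nuclei with a Six3 UMI, at 74.4 against 43.7 in those with a Pvalb UMI and at 83.9 against 40.1 in those without a Slc17a6 or Ntng1 UMI.

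In this 3′ protocol a transcript is counted by its end, so UMIs need not scale with exon length, but intronic reads can make them rise with gene span, and the sources used do not say whether these were counted. The shares are therefore also given per length. Per kb of exon, Cacna1g held 90.1 and 89.3% of the relay-like total in sham and injury, and per kb of gene span 93.2 and 92.4%. In reticular-like nuclei the order changed with the length used. Per kb of exon, Cacna1i came first with 44.1 and 43.5% and Cacna1g had 41.8 and 37.2%. Per kb of gene span, Cacna1g came first with 50.8 and 45.0%, and Cacna1i had 30.9 and 30.3%. Cacna1h came last on both scales, with 14.1 and 19.2% per kb of exon and 18.2 and 24.7% per kb of span.

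Which genes were found together in a nucleus is given as a description, since free RNA can add a UMI to any of them. Of sham relay-like nuclei, 63.7% had Cacna1g alone, 8.65% had Cacna1g with Cacna1i, 3.30% had Cacna1i alone and 21.1% had none of the 3. In injury these shares were 62.7, 10.0, 3.19 and 19.3%. In sham reticular-like nuclei 20.1% had Cacna1i alone, 17.3% Cacna1g alone, 12.7% both of these, 5.33% Cacna1h with Cacna1i, 3.83% Cacna1h alone and 3.01% all 3. In injury the shares were 19.5, 16.4, 10.96, 7.23, 6.64 and 3.74%. Habenular-like nuclei had none of the genes in 58.7 and 51.8%, and only 8.46 and 9.01% had Cacna1g with Cacna1i. Deeper nuclei find more genes together, and the relay-like nuclei were the deepest, with median totals of 11257 and 12010 UMIs against 8382 and 9072 in reticular-like and 7283 and 9535 in habenular-like nuclei. Thinned to 2000 UMIs, 0.82 and 0.83% of reticular-like, 0.58 and 0.38% of relay-like nuclei and 0.26 and 0.39% of oligodendrocytes had Cacna1g with Cacna1i and no Cacna1h. In sham these came from 6, 28 and 1 nuclei with overlapping intervals, so no order is read from them.

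**Figure D2:**
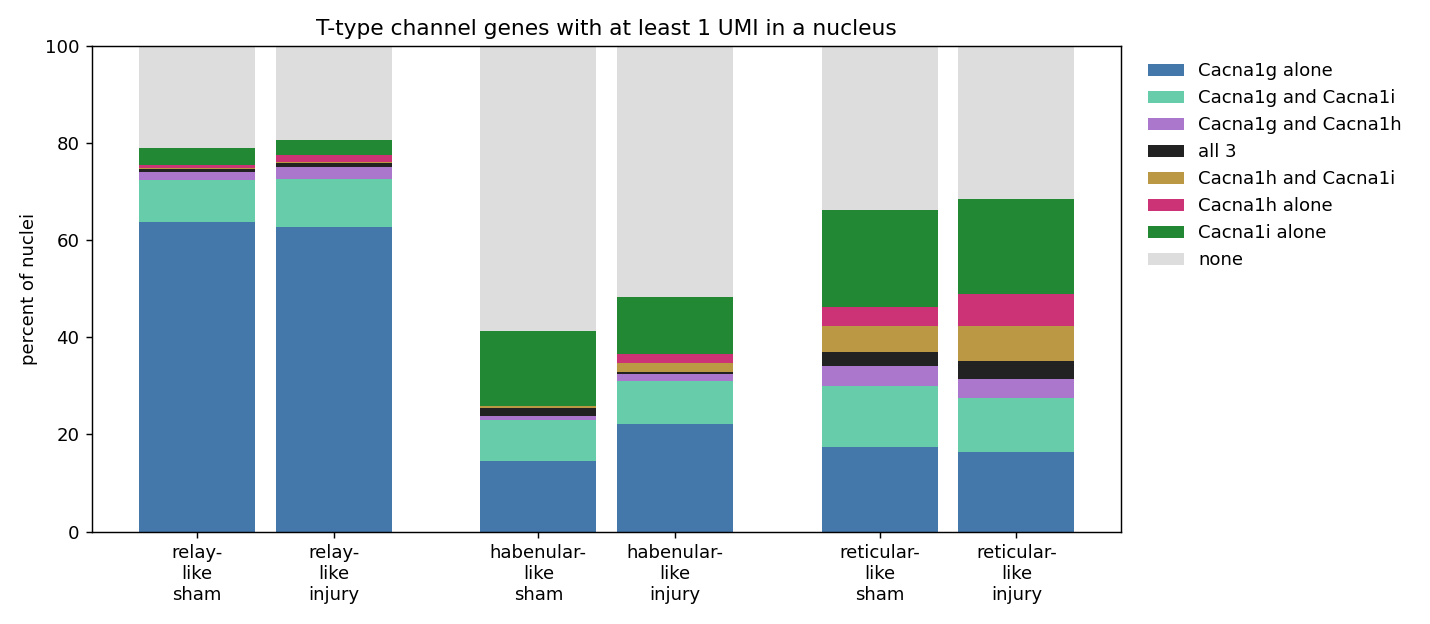
Percent of nuclei (y axis, 0 to 100) of each class and library (x axis) by which of the T-type channel genes had at least 1 UMI, at the full depth of each nucleus. Cacna1g alone fills 63.7 and 62.7% of the relay-like bars, and the reticular-like bars are split among Cacna1i alone, Cacna1g alone and both.

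Within the glutamatergic nuclei, types set by their own markers differed in their T-type genes. A type needed at least 2 UMIs summed over its markers. Nuclei of several types (1534 sham and 1800 injury) or of none (1638 and 1639) were left out, so the types do not divide up the whole class. The same rule held for habenular-like and other GABAergic types. In sham, Cacna1g was highest and much alike in Nox4+Adgrg6, Prkcd+Adgrf5 and C6+Tspear nuclei, at 168, 167 and 164 CPM, with overlapping intervals. In injury the same types had 162, 187 and 198 CPM. Col12a1+Ror1 nuclei followed with 139 and 125 CPM, Lypd6b+Hpse2 nuclei with 96.7 and 87.2 CPM and Ebf3+Sim1+Lmx1a nuclei with 77.1 and 71.9 CPM. Cacna1i was low in the 3 types that were highest in Cacna1g. It stood at 6.75 and 5.26 CPM in Nox4+Adgrg6, at 5.74 and 7.87 CPM in Prkcd+Adgrf5 and at 9.001 and 8.44 CPM in C6+Tspear nuclei, levels near those of oligodendrocytes. It was higher in the types with less Cacna1g, although not in strict reverse order. It stood at 26.5 and 29.9 CPM in Col12a1+Ror1 nuclei, at 19.9 and 28.1 in Lypd6b+Hpse2 nuclei and at 43.3 and 37.7 in Ebf3+Sim1+Lmx1a nuclei. In sham, the Cacna1h interval lay above that of oligodendrocytes in 1 of these 6 types, Ebf3+Sim1+Lmx1a, with 23.99 CPM (18.4 to 30.8) and 25.8 CPM (20.3 to 32.3) in injury. Of these nuclei 26.8 and 28.4% were relay-like by gate, against 95.3 and 85.9% of Col12a1+Ror1 nuclei and 100 and 99.9% of Prkcd+Adgrf5 nuclei. Among GABAergic nuclei, the Pax6+Otof+Cdh23 type had 67.1 and 82.7 CPM of Cacna1g, 40.2 and 45.1 of Cacna1i and 6.29 and 16.7 of Cacna1h.

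Relay-like nuclei were also split by Prkcd, a marker of many relay neurons that was also part of the gate. Nuclei with a Prkcd UMI had 168 and 184 CPM of Cacna1g and 7.02 and 8.35 CPM of Cacna1i. Those without one had 129.8 and 134 CPM of Cacna1g and 21.6 and 23.8 CPM of Cacna1i. Nuclei without a Prkcd UMI held 557 of the 797 sham and 665 of the 996 injury Cacna1i UMIs of relay-like nuclei.

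**Figure D3:**
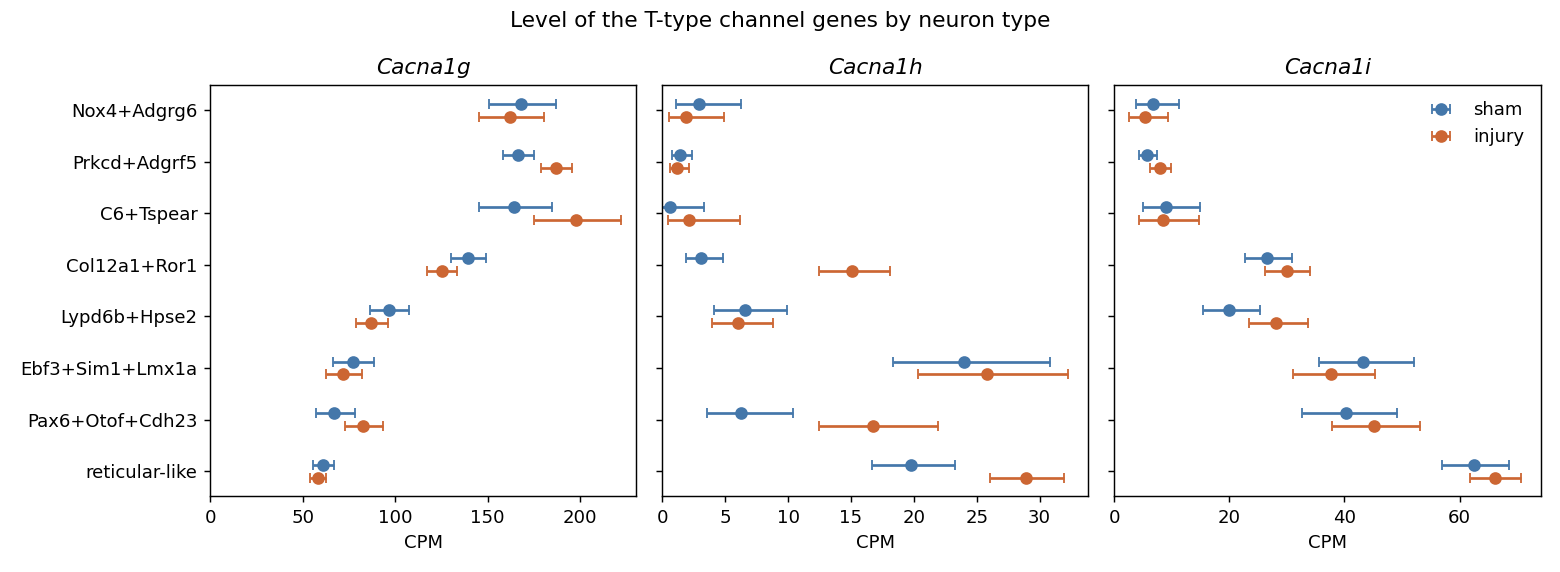
Level in CPM (x axis, linear from 0, a different range in each panel) of the 3 genes in the 8 neuron types with at least 50 nuclei in both libraries (y axis, ordered by sham Cacna1g), with exact Poisson 95% intervals. Cacna1g falls from 168 CPM in sham Nox4+Adgrg6 to 60.9 in reticular-like nuclei, and sham Cacna1i lies between 5.74 and 9.001 CPM in the 3 types highest in Cacna1g and between 19.9 and 62.6 CPM in the other 5.

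Correlations over these 8 types in both libraries (16 points, which share the libraries and whose depths differ) are given as a description. The Pearson correlation of log2 levels was -0.92 for Cacna1g and Cacna1i, -0.86 for Cacna1g and Cacna1h, and 0.89 for Cacna1h and Cacna1i. The low end of Cacna1h rests on few UMIs, at CPM below those of oligodendrocytes. These were 1 and 3 UMIs in C6+Tspear, 6 and 4 in Nox4+Adgrg6 and 13 and 12 in Prkcd+Adgrf5 nuclei. Among 8519 genes, those whose pattern was most like Cacna1g were Phactr2 (0.98), the predicted gene Gm12027 (0.98), Kcnip4 (0.98), Mturn (0.98) and Cfap74 (0.97). Kcnip4 encodes a partner of the Kv4 potassium channels and ranged from 4122 to 31274 CPM. Those most like Cacna1h were Erbb4 (0.95), the neuregulin receptor found in many interneurons, Sh3bp5 (0.94), Man1a (0.94), Ngef (0.93) and Phactr1 (0.93). Those most like Cacna1i were Map3k4 (0.96), Bach1 (0.96), P3h2 (0.95), Cacna2d2 (0.95) and Ankrd55 (0.95). Cacna2d2 encodes an auxiliary calcium channel subunit and ranged from 33.8 to 207 CPM. The lists depend on the measure. By Spearman correlation Phactr2 was at rank 5 and Mturn at rank 2 for Cacna1g, and Erbb4 at rank 2 for Cacna1h. The other named genes were at ranks from 7 (Map3k4) to 107 (Bach1), with Kcnip4 at 83.

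The injury library was then set against the sham library within each class, by the log2 ratio of CPM. In relay-like nuclei Cacna1g was higher in injury by 0.11 (interval 0.07 to 0.15) and Cacna1i by 0.15 (0.01 to 0.29), both small. Cacna1h was higher by 0.56 (0.28 to 0.84), at a CPM below that of oligodendrocytes. With nuclei thinned to 2000 UMIs the Cacna1i ratio turned to -0.058. The Cacna1g ratio went both ways among mostly relay-like types with at least 50 nuclei in each library. It was 0.17 (0.07 to 0.26) in Prkcd+Adgrf5 and 0.27 (0.02 to 0.51) in C6+Tspear nuclei. It was -0.15 (-0.29 to -0.02) in Col12a1+Ror1, -0.15 (-0.37 to 0.07) in Lypd6b+Hpse2 and -0.05 (-0.27 to 0.17) in Nox4+Adgrg6 nuclei. Relay-like nuclei with a Slc17a7 UMI had -0.02 (-0.09 to 0.05) and those without 0.18 (0.13 to 0.23). The higher Cacna1h was not seen in every part of the class. Relay-like nuclei without a Slc17a7 UMI had a ratio of 0.21 (-0.10 to 0.52), against 1.94 (1.25 to 2.70) in those with one. Of the types that were mostly relay-like, Col12a1+Ror1 nuclei went from 19 to 118 Cacna1h UMIs, while Prkcd+Adgrf5 nuclei had 13 and 12, Nox4+Adgrg6 nuclei 6 and 4, Lypd6b+Hpse2 nuclei 22 and 26 and C6+Tspear nuclei 1 and 3. The few Adamts9+Crybg1 nuclei, also mostly relay-like, had 5 and 20 (log2 ratio 1.91, interval 0.45 to 3.68). In reticular-like nuclei Cacna1g and Cacna1i did not differ beyond counting error, at -0.07 (-0.24 to 0.10) and 0.08 (-0.08 to 0.25), and Cacna1h was higher by 0.55 (0.27 to 0.83), or 1.46 times, from 147 and 380 UMIs. In habenular-like nuclei Cacna1g was higher by 0.41 (0.05 to 0.77), but the ratio turned to -1.58 with gates scaled to depth. Those gates took 149 sham and 123 injury nuclei with only 50 and 18 T-type UMIs, at median depths of 4590 and 3583 UMIs. By CPM the sham habenular-like level of Cacna1g could not be told apart from that of oligodendrocytes. Cacna1i at -0.30 (-0.76 to 0.16) and Cacna1h at 0.26 (-1.12 to 1.74) had intervals that included 0. The habenular-like nuclei of the injury library were also deeper, and their Ntng1 level was 1338 against 1057 CPM. The part of free relay RNA in their Cacna1g was not tested.

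Changes of this size were common. A log2 ratio past 0.25 was reached by 1 of the 3 genes in relay-like nuclei, where 33.5% of all genes with at least 20 UMIs reached it, by 1 of 3 in reticular-like nuclei, where 36% did, and by all 3 in habenular-like nuclei, where 45.9% did. Past 0.25 with an interval that excluded 0 were Cacna1h in relay-like (18.6% of all genes), Cacna1g in habenular-like (11.5%) and Cacna1h in reticular-like nuclei (13.8%). In other glutamatergic nuclei 2 of 3 passed on both counts, against 50.4 and 26.2% of genes (past 0.25, 19.4% upward and 30.9% downward), with Cacna1g at -0.54 (-0.74 to -0.34), Cacna1h at 1.05 (0.73 to 1.39) and Cacna1i at -0.24 (-0.48 to 0.01). In other GABAergic nuclei Cacna1h passed, at 0.60 (0.31 to 0.90), against 41.4 and 20.8% of genes (past 0.25, 21.8% upward and 19.6% downward). Cacna1g stood there at 0.23 (0.09 to 0.37) and Cacna1i at -0.22 (-0.41 to -0.02). Prdm16+Ano2+Cpa6 nuclei, a type set by its own markers, made up 26 of 1051 sham and 352 of 1920 injury nuclei of this class. Without them the ratio was 0.0023 (-0.20 to 0.20) for Cacna1i, 0.15 (0.01 to 0.30) for Cacna1g and 0.57 (0.26 to 0.89) for Cacna1h. The lower Cacna1i was thus not seen outside this type. Within the type the Cacna1i ratio was -0.90 (-1.97 to 0.37), from only 8 sham UMIs, an interval that included 0. How far the mix of types moved the class ratio was not tested.

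**Figure D4:**
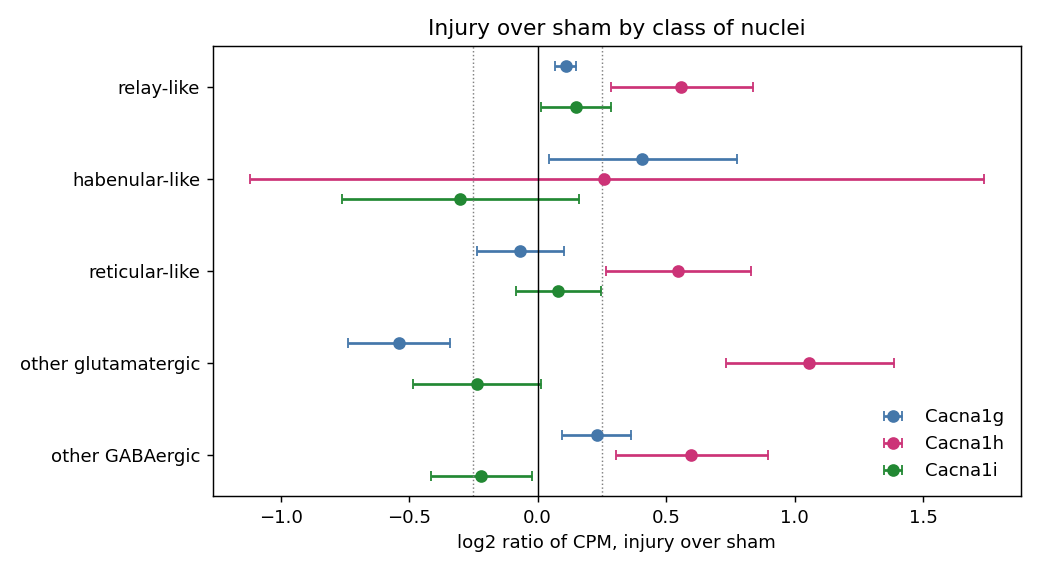
Log2 ratio of CPM, injury over sham (x axis), for Cacna1g (blue), Cacna1h (pink) and Cacna1i (green) in 5 neuronal classes (y axis), with exact binomial 95% intervals. The solid line marks no difference and the dotted lines a log2 ratio of 0.25 either way. Cacna1h lies right of 0 in all 5 classes, with an interval that includes 0 in habenular-like nuclei.

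Cacna1h was higher in the injury library as a whole, at 12.5 against 7.42 CPM (log2 ratio 0.75, interval 0.65 to 0.86), and also in the nuclei that passed no gate (0.53, interval 0.35 to 0.71). In oligodendrocytes the ratio was 0.22 (-0.56 to 1.06). The mix of classes also differed between the libraries. Relay-like nuclei were 29.6% of sham and 23.2% of injury nuclei, reticular-like 4.47 and 5.53% and other GABAergic 6.42 and 8.82%. The part of this mix in the whole-library ratio was not tested. The level of Cacna1h was then examined in nuclei split by marker UMIs, after the values above were seen. Reticular-like nuclei with a Pvalb UMI had 18.1 CPM (13.1 to 24.4) in 224 sham nuclei and 39.1 (33.5 to 45.3) in 389 injury nuclei, a log2 ratio of 1.11 (0.62 to 1.63). Pvalb encodes the calcium buffer parvalbumin, typical of reticular neurons. Those without a Pvalb UMI had 20.6 CPM (16.8 to 24.9) and 23.6 (20.4 to 27.0), a log2 ratio of 0.20 (-0.15 to 0.55). A split by Six3, a transcription factor gene of the gate, looked alike. Nuclei with a Six3 UMI had 19.8 and 38.0 CPM (0.94, interval 0.53 to 1.37) and those without had 19.8 and 21.8 CPM (0.14, interval -0.25 to 0.54). Cacna1i was also higher in injury in nuclei with a Pvalb UMI, at 74.4 and 90.0 CPM (0.27, interval 0.02 to 0.54), and Cacna1g stood at 43.7 and 36.2 CPM (-0.27, interval -0.64 to 0.10). Without a Pvalb UMI the Cacna1i ratio was -0.08 (-0.30 to 0.13). A split by Ntng1 gave Cacna1i ratios of 0.31 (0.07 to 0.55) with a UMI and -0.12 (-0.35 to 0.12) without. For Cacna1h, other splits did not part the nuclei in the way that Pvalb and Six3 did. Nuclei without an Isl1 UMI also had more Cacna1h in injury (0.45, interval 0.05 to 0.86), beside 0.60 (0.21 to 1.008) with one, and so did those without an Ntng1 UMI (0.43, interval 0.03 to 0.85), a Slc17a6 UMI (0.56, interval 0.25 to 0.88) or an Sst UMI (0.52, interval 0.23 to 0.82). With these markers the ratios were 0.67 (0.27 to 1.07) for Ntng1, 0.44 (-0.21 to 1.13) for Slc17a6 and 0.64 (-0.34 to 1.70) for Sst. The differences between nuclei with and without a marker were not tested.

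Nuclei with cortex markers were the other split. In other glutamatergic nuclei the summed level of Neurod6, Neurod2, Tbr1 and Emx1 was 4.47 CPM in sham and 48.4 CPM in injury, each of the 4 was higher in injury, and Slc17a7, the main glutamate transporter gene of cortical neurons, stood at 16.2 and 115.9 CPM. Nuclei with at least 1 UMI of these 4 genes numbered 20 of 559 in sham and 190 of 824 in injury. In injury they had 68.5 CPM (58.2 to 80.2) of Cacna1h, against 9.25 CPM (1.12 to 33.4) from 2 UMIs in the few sham nuclei. Their Cacna1g stood at 25.04 CPM in injury and at 50.9 CPM, from 11 UMIs, in sham. Without them Cacna1h was 21.4 CPM (17.5 to 26.1) in sham and 33.1 (28.5 to 38.3) in injury, a log2 ratio of 0.63 (0.27 to 0.99). The ratio of Cacna1g was then -0.27 (-0.48 to -0.06), against -0.54 with all nuclei of the class, and whether this interval includes 0 depends on which cortex markers are taken. In Col12a1+Ror1 nuclei, where Cacna1h stood at 3.08 CPM in sham and 15.1 in injury (log2 ratio 2.30, interval 1.59 to 3.08), cortex markers stood at 1.78 and 11.9 CPM and Slc17a7 at 28.2 and 75.6 CPM. The part of cortical nuclei in that value was not tested. In relay-like nuclei the cortex markers stood at 1.23 and 3.08 CPM. Without nuclei that had any, Cacna1h there was 2.90 and 3.83 CPM, a log2 ratio of 0.40 (0.12 to 0.69), against 0.56 with all nuclei of the class. In reticular-like nuclei the cortex markers stood at 0.67 and 2.58 CPM.

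**Figure D5:**
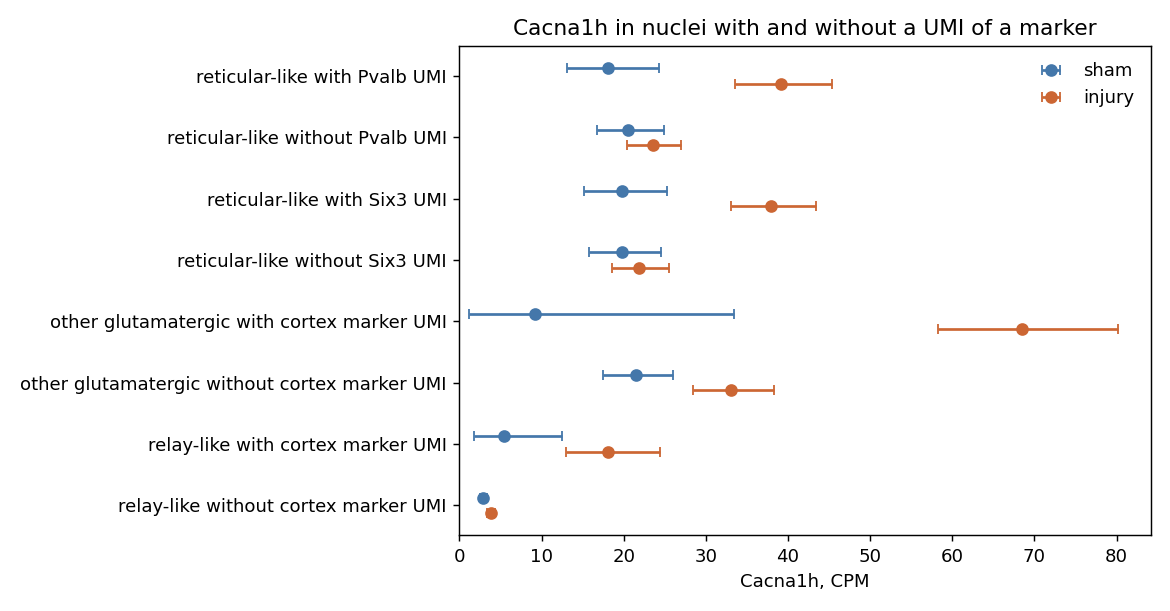
Level of Cacna1h in CPM (x axis, linear from 0) in the sham (blue) and injury (orange) library for nuclei with and without a UMI of a marker (y axis), with exact Poisson 95% intervals. The libraries stand apart in reticular-like nuclei with Pvalb (18.1 against 39.1 CPM) or Six3 and in other glutamatergic nuclei with (9.25 against 68.5 CPM) and without cortex markers, and overlap in reticular-like nuclei without Pvalb or Six3.

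The rest of the calcium machinery was examined by lists of genes that act beside the T-type channels. Of the 15 genes for the other voltage-gated calcium channel subunits, the 15 measured in relay-like nuclei had 1 past 0.25 upward and 1 downward and a median log2 ratio of 0.08, beside 0.001 over all genes. Cacna1e, the pore of R-type channels, was higher in injury relay-like nuclei (275 and 345 CPM, log2 ratio 0.33, interval 0.30 to 0.36) and in reticular-like nuclei (288 and 357 CPM, 0.31, interval 0.24 to 0.39). The gene past 0.25 downward was Cacna1f, the pore of an L-type channel known from the retina, at 1.77 and 1.30 CPM in relay-like nuclei (-0.44, interval -0.86 to -0.02). In reticular-like nuclei it stood at 2.29 and 1.29 CPM (-0.82, interval -1.88 to 0.24). There 14 of the 15 were measured, with 1 upward, 1 downward and a median of 0.10 beside -0.01 over all genes. In habenular-like nuclei 13 were measured, 6 passed upward and none downward, and the median was 0.24 beside -0.004. There Cacna2d3 stood at 234 and 383 CPM (0.71, interval 0.55 to 0.87), Cacnb4 at 245 and 351 CPM (0.52, interval 0.36 to 0.68) and Cacna1c, the pore of an L-type channel, at 1150.2 and 1400.2 CPM (0.28, interval 0.21 to 0.36). Of all genes, 17.5% in relay-like, 17.1% in reticular-like and 23% in habenular-like nuclei passed 0.25 upward, and 16.1, 18.9 and 22.9% passed it downward.

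Of the 12 genes for calcium stores and extrusion, 5 passed upward in relay-like nuclei, 1 in reticular-like nuclei and 4 of 11 measured in habenular-like nuclei, and none passed downward. Of all genes in these classes, 17.5, 17.1 and 23% passed upward and 16.1, 18.9 and 22.9% downward. The medians of the list were 0.22, 0.11 and 0.14, beside 0.001, -0.01 and -0.004 over all genes. Ryr2, a calcium release channel of the endoplasmic reticulum, stood at 155 and 212 CPM in relay-like nuclei (log2 ratio 0.45, interval 0.41 to 0.49). Slc8a2, a sodium-calcium exchanger, stood there at 15.3 and 20.01 CPM (0.39, interval 0.27 to 0.51). In reticular-like nuclei Ryr1 stood at 4.17 and 7.14 CPM (0.78, interval 0.18 to 1.41). Ryr1 stood at 2.30 and 2.96 CPM in relay-like nuclei (0.36, interval 0.04 to 0.69). In habenular-like nuclei the release channel gene Ryr3 stood at 377 and 477 CPM (0.34, interval 0.21 to 0.47), Itpr1 at 76.6 and 96.9 CPM (0.34, interval 0.04 to 0.64) and the calcium pump gene Atp2b1 at 227 and 285 CPM (0.33, interval 0.16 to 0.50).

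Small-conductance potassium channels are opened by calcium, including calcium that enters through T-type channels, and shape the burst. None of their 3 genes passed 0.25 in relay-like nuclei and none of 2 measured in habenular-like nuclei. In reticular-like nuclei 2 of 3 passed upward, beside 17.1% of all genes. These were Kcnn3 at 48.6 and 61.3 CPM (0.34, interval 0.16 to 0.52) and Kcnn1 at 2.69 and 3.42 CPM (0.35, interval -0.44 to 1.18). The medians of this list were 0.06, -0.01 and 0.34 in relay-like, habenular-like and reticular-like nuclei. Of the regulators of Cav3.2, the deubiquitinase gene Usp5 stood at 20.1 and 20.9 CPM in relay-like nuclei, and Klhl1 at 38.2 and 46.9 CPM (0.30, interval 0.22 to 0.38). In reticular-like nuclei neither passed 0.25, and in habenular-like nuclei Usp5 stood at 25.2 and 18.5 CPM (-0.44, interval -1.04 to 0.16).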

How the data were processed

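Nuclei were sorted after propidium iodide staining, and libraries were built by the 10x Genomics 3′ v3.1 protocol. The authors made UMI counts per gene and barcode with Cell Ranger 6.0.2 against GRCm38, and the deposited tables hold these raw counts without normalization. The annotation release and the counting of introns and strands are not given in the sources used here. Nuclei with over 2% mitochondrial UMIs, under 200 or over 7500 genes were left out, as the study did. No doublet caller was run, and nuclei passing a second gate, the microglia gate included, were left out in an alternative. UMIs were summed per class, and CPM were given exact Poisson, shares and ratios exact binomial (Clopper-Pearson) 95% intervals (Python 3.11.15, SciPy 1.17.1). PCR and droplet effects are not in these intervals. Genes needed 20 UMIs over both libraries to be counted past a log2 ratio of 0.25. Thinning drew 2000 UMIs without replacement. Likeness was the Pearson correlation of log2(CPM + 1) for genes reaching 20 CPM in at least 1 type. TMM factors came from edgeR 4.0.16. The ratio step was tested on simulated data. The members, gates and gene lists were chosen with earlier results of these data known, and the splits by a marker UMI after the values were seen. A further cortex marker is not reported here, so the cortex splits rest on the other 4 genes, and whether the Cacna1g interval without those nuclei includes 0 depends on that choice. The text names the 3 genes, list genes past 0.25 with an interval without 0 (at most 6 a class), the 5 genes most like each member and the markers. Kcnn1, Usp5 in habenular-like and Cacna1f in reticular-like nuclei were named after their values were seen.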

Additional observations from a re-analysis of the deposited data

Results flagged for a closer look

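For 2 genes the log2 ratios between the 2 libraries lay on opposite sides of 0 in different classes. The log2 ratio of Cacna1g, injury over sham, was 0.11 in relay-like, 0.41 in habenular-like and 0.23 in other GABAergic nuclei, but -0.54 in other glutamatergic nuclei, and all of these intervals excluded 0. The habenular-like ratio turned to -1.58 with gates scaled to depth, which took shallower nuclei with only 50 sham and 18 injury T-type UMIs. By CPM the sham habenular-like level of Cacna1g could not be told apart from that of oligodendrocytes. With 1 library per group the difference between classes was not tested. Nuclei with cortex markers were 190 of 824 other glutamatergic nuclei in injury and 20 of 559 in sham, and without them the ratio was -0.27 (-0.48 to -0.06), an interval whose place relative to 0 depends on which cortex markers are taken.

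The log2 ratio of Cacna1i was 0.15 in relay-like and -0.22 in other GABAergic nuclei, and this difference was not tested either. Without Prdm16+Ano2+Cpa6 nuclei, 26 of 1051 sham and 352 of 1920 injury nuclei of the other GABAergic class, its ratio was 0.0023 (-0.20 to 0.20). The relay-like ratio turned to -0.058 with nuclei thinned to 2000 UMIs.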

How the results depend on the processing

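Of the 93 alternative values of the log2 ratios in relay-like, habenular-like and reticular-like nuclei, 83 stayed within the counting interval of the value reported. Cacna1h in reticular-like nuclei stayed past 0.25 upward in all 10 alternatives (0.43 to 0.94). Cacna1g in habenular-like nuclei turned to -1.58 and Cacna1i there moved to -1.02 with gates scaled to depth, which left 123 injury nuclei with 18 T-type UMIs. Cacna1h there, whose interval included 0, ran from -0.89 to 1.36 and kept its sign in 8 of 10 alternatives. Cacna1i in relay-like nuclei turned to -0.058 with thinning to 2000 UMIs, where Cacna1g was 0.056, and moved to 0.31 with gates of 3 UMIs. With Prkcd alone as relay marker, Cacna1h in relay-like nuclei was 1.31. Among alternatives chosen after seeing the data, Six3 and Ubash3b at 1 UMI each gave -0.24, 0.94 and 0.30 for Cacna1g, Cacna1h and Cacna1i in reticular-like nuclei, leaving out nuclei with Slc17a6 or Ntng1 gave -0.092 for Cacna1i, and leaving out Prdm16+Ano2+Cpa6 nuclei turned Cacna1i in other GABAergic nuclei from -0.22 to 0.0023. The causes were not tested.

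The Cacna1g share of relay-like T-type UMIs was 91.2% in sham with gates of 3 UMIs, 89.6 and 88.3% in sham and injury with scaled gates, 89.4% in sham as a mean of single nuclei and 89.5% in sham after thinning. In habenular-like nuclei it was 46 and 33.3% with scaled gates, 46.1 and 55.2% as a mean of nuclei, and 58.3% in injury after thinning. The Cacna1i share of reticular-like UMIs was 49.0 and 49.1% with gates of 3 UMIs, 52.4 and 52.0% with scaled gates, 47.8 and 49.2% without nuclei that passed a second gate, and in injury 45.7% as a mean of nuclei and 47.1% after thinning. Of the alternative shares treated as main results, 18 stayed within the counting interval and 18 did not. Among the other shares 46 stayed and 26 did not, and among levels in CPM 73 stayed and 35 did not. The TMM factor, injury over sham, was furthest from 0 in other glutamatergic nuclei, at -0.11 on the log2 scale. Equal weight to each type could be given in relay-like nuclei only. No paired analysis was possible because there is only 1 library on each side. Depth limits Cacna1h in habenular-like nuclei, with 8 and 13 UMIs.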

Other observations

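Some small types had too few nuclei for the comparisons above. Neurod6 nuclei, with cortex markers at 332 CPM in injury, numbered 2 in sham and 21 in injury, and the latter had 16 UMIs of Cacna1h (68.2 CPM), 1 of Cacna1g and 2 of Cacna1i. Adamts9+Crybg1 nuclei (40 in sham and 39 in injury) had 10.1 CPM of Cacna1h in sham and 38.1 in injury, with Slc17a7 at 14.2 and 95.2 CPM and cortex markers at 0 and 22.8 CPM. Prdm16+Ano2+Cpa6 GABAergic nuclei numbered 26 in sham and 352 in injury. In injury they had 94.2 CPM of Cacna1g, 22.6 of Cacna1h and 14.6 of Cacna1i. Among habenular-like nuclei, those with Chat and Slc5a7, which mark cholinergic neurons, had 26.5 and 59.0 CPM of Cacna1g from 7 and 48 UMIs and 15.1 and 16.0 CPM of Cacna1i, whereas those with Pde11a had 58.6 and 75.1 CPM of Cacna1g and 37.5 and 44.7 CPM of Cacna1i.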
